A study of Mus musculus with 6 samples.

Results

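The data concern 10 immediate early genes, namely Fos, Fosb, Junb, Egr1, Egr2, Npas4, Arc, Nr4a1, Ier2 and Btg2, picked by symbol from a gene count table of mouse olfactory tissue with 49164 entries that hold counts. All 10 were found once and all 10 passed the filter on low counts, which kept 19899 genes. The 6 libraries compared comprised 3 from sFlt1 mice and 3 from control mice, each from the dissected nasal conchae of 1 c57Bl6/ICR crossbred mouse that was labelled male and 3 months old. The sFlt1 mice were a cross of a camk2a-tTa line with a tet-sFlt1 line, in which a tet transactivator under the Camk2a promoter drives soluble Flt1, a decoy receptor for VEGF, and plain water took the place of tetracycline from embryonic day 13.5. MRI at 2 months put their olfactory bulbs, where the axons of nasal sensory neurons end, at 28% of normal size in sFlt1 replicate 1, 29% in replicate 2 and 14% in replicate 3. The control mice were labelled WT, with no treatment and a normal bulb, although the note on tetracycline stands with all 6 samples. The question is which genes change in the nose when the bulb has degenerated.

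Immediate early genes are switched on within minutes of a stimulus without new protein synthesis. Growth factors, stress, tissue handling and, in neurons, calcium entry during firing all reach them through kinases that act on the factors SRF and CREB already bound at their promoters. Most encode transcription factors of the AP-1, EGR and NR4A families, and their messenger RNAs are short-lived. In olfactory and brain tissue they serve as markers of recent neuronal activity, and Npas4 and Arc are the members most tied to neurons.

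Some facts of the libraries bear on what follows. Library totals ran from 30300680 to 44449029 counts in sFlt1 mice and from 28832424 to 46444862 in controls, and sFlt1 replicate 3 and control replicate 3 were the deepest of their groups. Control replicate 3 stood apart in brain transcripts. Gad1, the GABA-synthesis enzyme of inhibitory neurons, was at 2.457, 0.8512 and 17.4 CPM (counts scaled to the library size) in sFlt1 replicates 1, 2 and 3, against 27.4, 26.2 and 568.6 CPM in control replicates 1, 2 and 3. Xist, transcribed from the inactive X chromosome, was at 523.7 CPM in sFlt1 replicate 3 and 709.9 CPM in control replicate 1, and at 0.371 CPM or less in the other 4 libraries. Every mouse was labelled male, and the high Xist in sFlt1 replicate 3 and control replicate 1 goes against that label. The labels were kept as given. Omp, which marks mature sensory neurons, was at 1317, 2366 and 465.8 CPM in sFlt1 mice and 3598, 4056 and 2836 CPM in controls. This transcript of sensory neurons was thus present in every library, which does not show how much other tissue a library held. Flt1, whose transgene and endogenous reads the counts do not separate, was at 6.423, 2.357 and 9.792 CPM in sFlt1 mice and 3.708, 2.814 and 11.1 CPM in controls. In such bulk samples, fewer cells of a type and less RNA per cell cannot be told apart.

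The sFlt1 and control groups overlapped for 8 of the 10 genes, and most members were high in 1 library of each group. Fos, Fosb, Junb, Egr1, Egr2, Arc and Nr4a1 had their 2 highest values of 6 in sFlt1 replicate 3 and control replicate 3. No member passed the edgeR quasi-likelihood test at a Benjamini-Hochberg adjusted p under 0.05, the share called among all genes being 0%. At an unadjusted p under 0.05, 11.1% of all tested genes and 2 members passed edgeR, Btg2 upwards, where 4.84% passed, and Npas4 downwards, where 6.24% did. DESeq2 called 1 member, Npas4, lower in sFlt1 mice, where it called 2.53% of genes with a p and 1.71% as lower, and its outlier filter gave no p for Fosb and Egr1. Of the 10 edgeR estimates 6 were above 0, where 51.3% of all tested genes were, and 4 below, with a median log2 fold change of 0.39 (sFlt1 over control), against 0.02 over all genes tested. Without sFlt1 replicate 3 the median was -1.46, with 2 estimates above 0, and without control replicate 3 it was 1.25, with 8 above 0. By limma voom the median was -0.14, with 3 above 0 and 7 below.

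**Figure D1:**
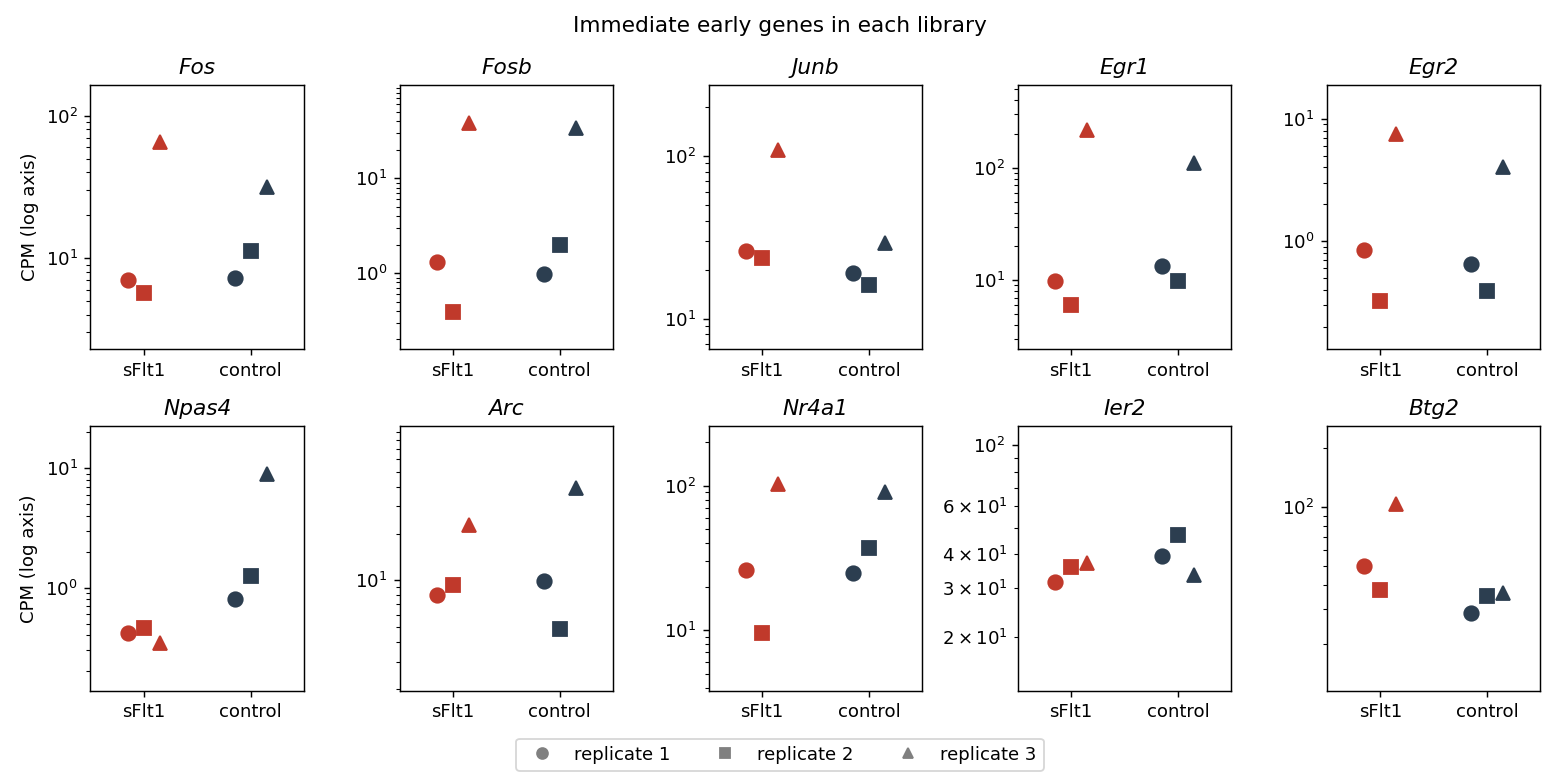
Normalized level (CPM, log axis with its own range in each panel) of the 10 immediate early genes, with 1 point per library, sFlt1 mice on the left and control mice on the right, and the marker shape giving the replicate number. The triangles of replicate 3 lie above the other libraries in both groups for Fos, Fosb, Junb, Egr1, Egr2, Arc and Nr4a1, while Npas4 is high in control replicate 3 alone and Ier2 lies between 31.8 and 46.9 CPM.

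Fos, Fosb and Junb encode subunits of AP-1, a dimer in which a Fos protein pairs with a Jun protein. Fos (chromosome 12, 85520664 to 85524047, GRCm39) was at 7.055, 5.696 and 65.8 CPM in sFlt1 replicates 1, 2 and 3, against 7.267, 11.3 and 31.6 CPM in control replicates 1, 2 and 3. The groups overlapped, and 1 library in each held several times the level of its 2 companions. Its log2 fold change was 0.65 (SE 1.02, adjusted p = 0.828 by edgeR). It was -1.39 without sFlt1 replicate 3 and 1.5 without control replicate 3. Fosb (chromosome 7, 19036621 to 19043976), a Fos paralog, was at 1.299, 0.3928 and 38.6 CPM in sFlt1 mice and 0.9788, 1.995 and 34.0 CPM in controls. In reads, that was 37, 18 and 1679 counts against 33, 56 and 1521 counts, so the highest library stood 98.2-fold above the lowest, the widest range among the 10 members. Its log2 fold change of 0.12 (SE 1.80, adjusted p = 0.982 by edgeR) moved to -3.89 on leaving out sFlt1 replicate 3, -0.35 for control replicate 1, -0.38 for control replicate 2 and 3.18 for control replicate 3.

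Junb, the Jun subunit among the members, leaned further towards sFlt1 replicate 3. Junb (chromosome 8, 85701113 to 85705347) was at 25.8, 23.6 and 108.9 CPM in sFlt1 mice, against 19.1, 16.2 and 29.1 CPM in controls. Control replicate 3 was the second highest library, though only 1.65 times the mean of the other 2 controls. The log2 fold change was 1.30 (SE 0.63, adjusted p = 0.489 by edgeR), and 0.20 without sFlt1 replicate 3. Junb shares 351 bases with Prdx2 on the opposite strand, and since the strand setting of the counting is not given, reads from that stretch cannot be assigned to either gene.

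Fos is shown with its promoter because it stands for the members that were high in the same 2 libraries. The sequence below runs from 250 bases before to 50 bases after the RefSeq start (GRCm38.p6, chr12:85473640-85473939, plus strand). Capitals mark the CREB core motif TGACG, searched on both strands, and the TATA motif TATAAA, searched on the gene's strand.
Fos: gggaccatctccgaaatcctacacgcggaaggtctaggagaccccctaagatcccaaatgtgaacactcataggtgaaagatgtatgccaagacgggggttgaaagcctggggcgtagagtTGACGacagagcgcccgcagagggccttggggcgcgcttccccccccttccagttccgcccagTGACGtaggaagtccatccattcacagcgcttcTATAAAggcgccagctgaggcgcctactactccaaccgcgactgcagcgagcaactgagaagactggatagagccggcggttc
The core motifs lie at positions -129 to -125 and -66 to -62 from the start, and the TATA motif at -33 to -28. The core motif is present in 20.8% and TATAAA in 8.32% of the 32851 promoters of the same table. Of the 6 members with a single promoter among those used (Fos, Fosb, Junb, Nr4a1, Npas4 and Btg2) all 6 held the core motif, although Npas4 and Btg2 did not share the library pattern of Fos. Egr1 was not included in this count. Btg2 also held the full palindrome TGACGTCA, present in 1.79% of promoters.

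Egr1 and Egr2 encode zinc finger factors that bind GC-rich sites. Egr1 (chromosome 18, 34992876 to 34998037) was at 9.863, 6.067 and 219.0 CPM in sFlt1 mice, against 13.35, 9.831 and 110.6 CPM in controls. The 2 replicate 3 libraries stood apart from the other 4, which ran from 6.067 to 13.35 CPM. For Egr1 the log2 fold change was 0.81 (SE 1.48, adjusted p = 0.850 by edgeR), -2.49 without sFlt1 replicate 3 and 2.76 without control replicate 3. Egr2 (chromosome 10, 67371305 to 67378018), also a regulator of myelination in Schwann cells, had few reads, with 24, 15 and 328 counts in sFlt1 mice and 22, 11 and 179 counts in controls, or 0.8424, 0.3274 and 7.539 CPM against 0.6525, 0.3918 and 4.002 CPM. The order of libraries was that of Egr1 at the top, and the groups overlapped. Its log2 fold change was 0.78 (SE 1.30, adjusted p = 0.837 by edgeR), -1.55 without sFlt1 replicate 3 and 2.47 without control replicate 3.

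Nr4a1, an orphan nuclear receptor, followed the same libraries with a smaller range. Nr4a1 (chromosome 15, 101152150 to 101172676) was at 25.9, 9.516 and 103.1 CPM in sFlt1 mice and 24.7, 37.2 and 90.9 CPM in controls. The 2 replicate 3 libraries again held the 2 highest values, and they differed from each other by 1.13-fold. Its log2 fold change was -0.14 (SE 0.86, adjusted p = 0.958 by edgeR). Leaving out sFlt1 replicate 3 gave -1.53, control replicate 3 0.58, sFlt1 replicate 1 0.19 and sFlt1 replicate 2 0.34.

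The Egr2 promoter is shown because it holds the motif bound by SRF, the CArG box. RefSeq lists 5 start sites for Egr2, and the windows of 4 of them have a CArG box. The windows that begin at 67537619, 67537620 and 67537680 overlap and hold the same box, CCATATATGG. The window that begins at 67537316 holds another, CCTTTTTTGG. A CArG box is present in 1.63% of all promoters, a share that cannot be set against overlapping windows of the same gene. The first of the overlapping windows is given (GRCm38.p6, chr10:67537619-67537918, plus strand). Capitals mark the CArG box and the CREB core motifs, of which the second is read on the other strand as CGTCA.
Egr2: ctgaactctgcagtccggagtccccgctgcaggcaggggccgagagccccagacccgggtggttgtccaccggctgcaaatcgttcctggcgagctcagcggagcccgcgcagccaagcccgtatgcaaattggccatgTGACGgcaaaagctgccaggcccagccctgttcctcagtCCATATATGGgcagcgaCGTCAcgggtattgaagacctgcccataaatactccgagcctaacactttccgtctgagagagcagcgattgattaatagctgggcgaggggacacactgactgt
The CArG box lies at -72 to -63, between core motifs at -111 to -107 and -55 to -51. A motif match describes the letters and not binding in these samples.

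Npas4, a factor induced by calcium entry and largely restricted to neurons, was the 1 member whose groups separated downwards. Npas4 (chromosome 19, 5034383 to 5040344) was at 0.4212, 0.4583 and 0.3448 CPM in sFlt1 mice, against 0.8008, 1.247 and 9.032 CPM in controls. In reads, that was 12, 21 and 15 counts against 27, 35 and 404 counts. All 3 sFlt1 libraries lay below all 3 controls, and the sFlt1 values lay close together, while control replicate 3 stood 8.82 times above the mean of the other 2 controls. The Npas4 log2 fold change was -3.17 (SE 0.99) and did not pass edgeR (adjusted p = 0.432). It passed DESeq2 (adjusted p = 0.0349). In the authors' deposited table its log2 fold change was -3.18 (adjusted p = 0.0383), where 1.56% of genes passed and 1.11% were called lower. Without control replicate 3 the log2 fold change was -1.32, with adjusted p = 0.781 by edgeR and 0.647 by DESeq2. Across the alternatives the adjusted p ran from 0.00432 to 0.647 by DESeq2 and from 0.362 to 0.781 by edgeR and limma voom.

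Control replicate 3 was also the library with the highest sum of brain neuron markers, and these moved with Npas4. The 20 brain neuron markers summed to 371.5, 352.0 and 439.0 CPM in sFlt1 mice and 530.9, 433.4 and 2676 CPM in controls, and none of the 20 was at 0 in any library. Among them Th, the dopamine-synthesis enzyme, was at 0.1755, 0.2401 and 1.310 CPM in sFlt1 mice and 5.102, 9.297 and 90.4 CPM in controls. Gabra2, a GABA receptor subunit, was at 0.7722, 0.2182 and 1.195 CPM against 3.085, 5.948 and 58.4 CPM. Eomes, a factor of excitatory bulb neurons, was at 5.581, 8.664 and 5.769 CPM in sFlt1 mice and 23.3, 25.1 and 81.7 CPM in controls. For Th, Gabra2 and Eomes as for Npas4, all 3 sFlt1 values lay below all 3 control values. This held for 10 of the 20 markers, and for 9.51% of all tested genes. Calb2, a calcium-binding protein, overlapped between the groups, with 175.9, 150.8 and 160.7 CPM against 163.8, 92.7 and 261.3 CPM. The part of these transcripts in the Npas4 difference was not tested.

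The Npas4 promoter is shown because it belongs to the member with a pattern of its own (GRCm38.p6, chr19:4989922-4990221, minus strand, written 5′ to 3′ along the gene, CREB core motifs in capitals).
Npas4: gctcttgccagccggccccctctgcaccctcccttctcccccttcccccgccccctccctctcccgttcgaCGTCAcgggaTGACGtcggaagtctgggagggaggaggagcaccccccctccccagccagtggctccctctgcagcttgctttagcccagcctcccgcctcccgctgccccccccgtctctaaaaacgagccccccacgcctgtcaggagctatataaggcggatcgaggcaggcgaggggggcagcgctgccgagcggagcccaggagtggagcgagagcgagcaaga
It holds core motifs on opposite strands at -179 to -175 and -169 to -165, and no CArG box in this window.

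Arc, which encodes a cytoskeleton-associated protein of dendrites and synapses, lay between both patterns. Arc (chromosome 15, 74540932 to 74544419) was at 8.002, 9.363 and 22.6 CPM in sFlt1 mice, against 9.906, 4.880 and 39.3 CPM in controls. Its highest library was control replicate 3 and its second highest sFlt1 replicate 3, and the groups overlapped. The log2 fold change was -0.44 (SE 0.79, adjusted p = 0.850 by edgeR), and it turned to 0.85 without control replicate 3.

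Ier2 and Btg2 were the steadiest members. Ier2 (chromosome 8, 85387960 to 85389483), a small nuclear protein of early growth factor responses, was at 31.8, 36.0 and 37.1 CPM in sFlt1 mice, against 39.3, 46.9 and 33.4 CPM in controls. Its highest library was 1.48-fold above its lowest, and control replicate 3 lay inside the sFlt1 range. The log2 fold change was -0.19 (SE 0.19, adjusted p = 0.731 by edgeR). Btg2 (chromosome 1, 134002908 to 134006858), an antiproliferative cofactor of messenger RNA decay, was at 49.6, 37.5 and 103.5 CPM in sFlt1 mice and 28.7, 35.2 and 36.4 CPM in controls. All 3 sFlt1 libraries lay above all 3 controls, though sFlt1 replicate 2 and control replicate 3 were close. The log2 fold change was 0.93 (standard error 0.38), with adjusted p = 0.446 by edgeR and 0.274 by DESeq2, and 0.38 without sFlt1 replicate 3. Over its alternatives the adjusted p of Btg2 ran from 0.298 to 0.785 by edgeR and limma voom and from 0.0615 to 0.524 by DESeq2. Groups that did not overlap were thus seen upwards in 1 of 10 members, where 8.76% of all tested genes had this, and downwards in 1 of 10, where 9.51% had it.

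**Figure D2:**
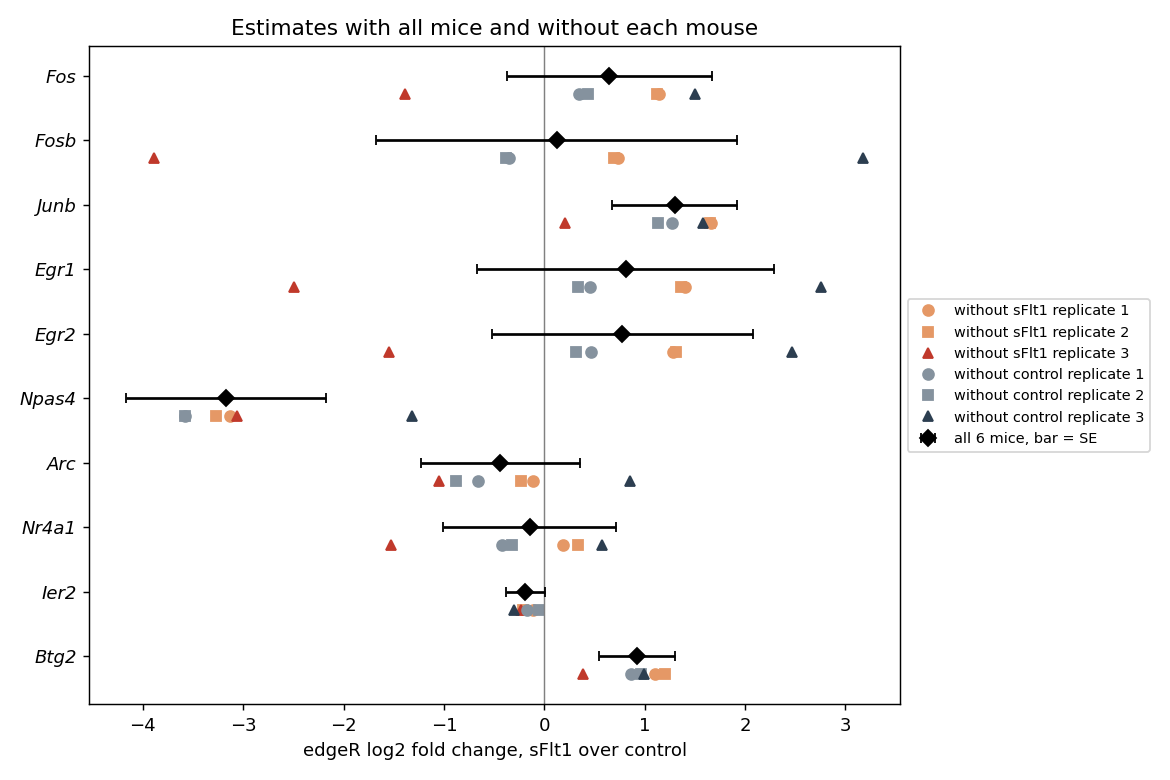
edgeR log2 fold change (sFlt1 over control) of each immediate early gene, with all 6 mice as a black diamond with its SE, and below it the estimates without each mouse in turn. Leaving out sFlt1 replicate 3 or control replicate 3 moves Fosb to -3.89 or 3.18 and Egr1 to -2.49 or 2.76, while Ier2 stays between -0.30 and -0.06.

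The members also differed in how far libraries of 1 group spread. The SD of log2 CPM within groups had a median of 1.34 over the 10 members, against 0.44 over all genes tested. It exceeded that of 99.7% of tested genes for Fosb, 99.2% for Egr1, 98.2% for Egr2 and 95.8% for Fos, and that of 13.1% for Ier2. In 7 of 10 members sFlt1 replicate 3 and control replicate 3 were the 2 highest libraries, which held for 13.3% of all tested genes and was the most frequent of the 15 pairs of libraries there. The highest single library was sFlt1 replicate 3 in 7 of 10 members, where that held for 27% of all tested genes. These libraries were picked after the values were seen, so both counts are descriptions. The 2 libraries share a replicate number, and the labels name no batch, litter or day that goes with it.

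Levels were compared between genes only per length, as CPM per kilobase of merged exons in GENCODE M21. In sFlt1 replicates 1 and 2, Ier2 was at 20.9 and 23.6 and Btg2 at 18.1 and 13.7 CPM per kilobase, ahead of the other 8 members. Fos was at 3.00 and 2.42, Egr1 at 2.2 and 1.35 and Npas4 at 0.102 and 0.111 CPM per kilobase in those libraries. The order was another in sFlt1 replicate 3, where Egr1 (48.8) and Junb (47.3 CPM per kilobase) were the highest. Control replicates 1 and 2 had Ier2 at 25.8 and 30.8 and Egr1 at 2.98 and 2.19 CPM per kilobase, and control replicate 3 had Nr4a1 highest at 25.9, with Egr1 at 24.7 CPM per kilobase.

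Other induced transcription factors were highest in sFlt1 replicate 3 for 11 genes, in control replicate 3 for 4 and in sFlt1 replicates 1 and 2 for 2 each. Both replicate 3 libraries held the 2 highest values for 5 of them. Of 20 such genes 19 passed the filter, with 15 estimates above 0, 4 below, 0 passed by edgeR, 1 by DESeq2 (Atf3) and a median log2 fold change of 0.65. Without sFlt1 replicate 3 the median was -0.15, with 8 above 0. Among all tested genes 51.3% of estimates were above 0, and DESeq2 called 2.53% of genes with a p. Csrnp1 was at 7.125, 5.849 and 89.8 CPM in sFlt1 mice and 5.072, 9.119 and 8.786 CPM in controls, and Per1, also a clock gene, at 38.6, 36.2 and 340.7 against 42.7, 57.7 and 81.8 CPM. Both were highest in sFlt1 replicate 3. Fosl1, a further Fos paralog, did not pass the filter, with 8.390 CPM in sFlt1 replicate 3 and 0.2459 CPM or less in the other 5 libraries. Egr4 and Nr4a3, by contrast, were highest in control replicate 3. Egr4 was at 0.2457, 0.02182 and 0.1149 CPM in sFlt1 mice and 0.4449, 0.6411 and 7.936 CPM in controls, with a log2 fold change of -4.60 (SE 1.42, adjusted p = 0.432 by edgeR). Nr4a3 was at 2.632, 1.135 and 7.217 CPM against 5.368, 5.414 and 37.1 CPM. Jund, a Jun paralog, had an estimate of 0.22 (SE 0.32), and Klf4, a zinc finger factor, 1.28 (SE 0.42, adjusted p = 0.432 by edgeR). Without control replicate 3 the Egr4 log2 fold change was -2.14. Egr4 had no DESeq2 p with the outlier filter on and an adjusted p of 0.0188 with it off, and without each mouse in turn its DESeq2 adjusted p ran from 0.00469 to 0.0736.

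Atf3, a stress-induced factor that dimerizes with AP-1 proteins, was the 1 gene of this list whose 3 sFlt1 libraries all stood well above the controls. It was at 29.8, 47.6 and 33.1 CPM in sFlt1 mice, against 2.195, 1.745 and 7.288 CPM in controls. The log2 fold change was 3.29 (standard error 0.60), with adjusted p = 0.432 by edgeR and 1.17e-05 by DESeq2. Without each mouse in turn, the DESeq2 adjusted p ran from 6.25e-26 to 0.000659 and the log2 fold change from 2.97 to 4.23. sFlt1 replicate 3 was not its highest library, unlike Fos and Junb.

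Induced effectors and feedback inhibitors were highest in sFlt1 replicate 3 for 19 of 26. Both replicate 3 libraries held the 2 highest values for 11 of them. Of the 26, 19 estimates were above 0 and 7 below, 0 passed by edgeR and 1 by DESeq2 (Nptx2), and the median log2 fold change of 0.47 was -0.16 without sFlt1 replicate 3. The shares over all genes were 51.3% of tested genes above 0 and 2.53% of genes with a p called by DESeq2. Dusp1, a phosphatase that switches off MAP kinases, was at 39.7, 38.8 and 161.7 CPM in sFlt1 mice and 52.0, 52.2 and 48.4 CPM in controls. Ccn1, a secreted matrix protein, was at 17.1, 9.952 and 441.6 CPM against 14.6, 13.2 and 11.8 CPM. Its log2 fold change was 3.56 (SE 1.40, adjusted p = 0.440 by edgeR) with all mice and 0.04 without sFlt1 replicate 3. Nptx2, an activity-induced secreted protein of excitatory synapses, went the other way. It was at 22.2, 44.7 and 11.3 CPM in sFlt1 mice and 90.8, 134.4 and 88.4 CPM in controls, without overlap, and a log2 fold change of -2.0 (standard error 0.49), with adjusted p = 0.432 by edgeR and 0.0102 by DESeq2. Without each mouse in turn the DESeq2 adjusted p of Nptx2 ran from 8.91e-07 to 0.111. Homer1, a synaptic scaffold with an induced short form, was at 29.3, 32.3 and 23.6 CPM in sFlt1 mice and 38.0, 41.5 and 76.3 CPM in controls (log2 fold change -0.87, SE 0.31, adjusted p = 0.432 by edgeR). Sgk1, a kinase, had a log2 fold change of 0.67 (SE 0.44).

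**Figure D3:**
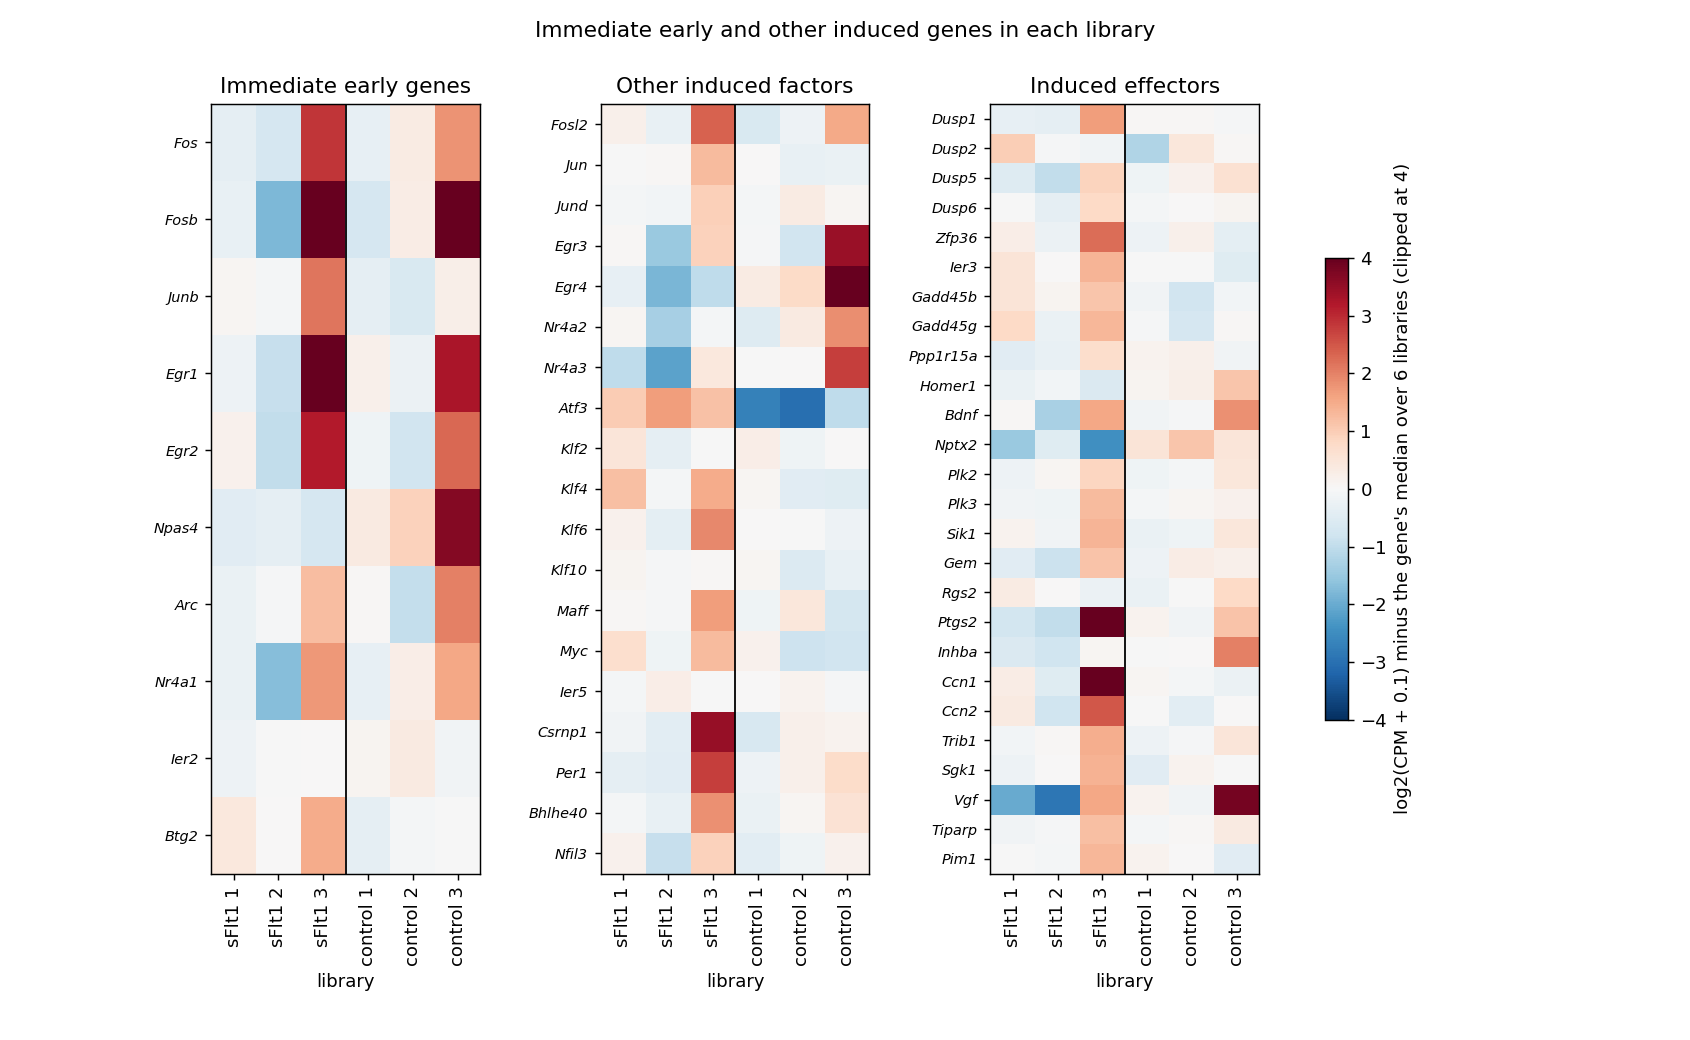
Level of the 10 immediate early genes, 19 other induced factors and 26 induced effectors in each library, as log2(CPM + 0.1) minus the gene's median over the 6 libraries, in red above and blue below, with sFlt1 libraries left of the line. The columns of sFlt1 3 and control 3 are red for Fos, Fosb, Egr1, Egr2, Arc and Nr4a1, whereas Dusp1, Zfp36, Ccn1 and Csrnp1 are red in sFlt1 3, and Npas4 and Egr4 in control 3.

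The kinases and factors that act upstream of these genes differed less between libraries of 1 group, with a median SD percentile of 42.8 among all genes against 93.2 for the members. Of 28 such genes 11 estimates were above 0, where 51.3% of all tested genes were, and 17 below. Their median log2 fold change was -0.08, which turned to 0.06 without control replicate 3, and 0 passed by edgeR. Both replicate 3 libraries held the 2 highest values for 12 of the 28. Srf was at 26.4, 22.9 and 38.7 CPM in sFlt1 mice and 27.6, 25.6 and 27.0 CPM in controls. Rps6ka1, a kinase that phosphorylates CREB, had a log2 fold change of 0.76 (SE 0.24, adjusted p = 0.432 by edgeR), Elk4, a partner of SRF, 0.67 (SE 0.31), and Mef2c, a calcium-responsive factor, -1.15 (SE 0.68). Heat shock genes encode chaperones, some induced by stress and others constitutive. The 10 genes of this list summed to 2615, 2459 and 1454 CPM in sFlt1 mice and 2927, 2436 and 2221 CPM in controls, lowest in the 2 replicate 3 libraries, with Hspa8 and Hsp90aa1 making up most of the sum. None of the 10 had its 2 highest values in both replicate 3 libraries. Hspb1 was at 57.1, 45.2 and 144.8 CPM in sFlt1 mice and 45.1, 53.3 and 30.2 CPM in controls, and Hspb1, Bag3 and Hspa1a were highest in sFlt1 replicate 3. The median log2 fold change was 0.11, with 6 above 0, where 51.3% of all tested genes were, and 0 passed by edgeR. Of these, Hspa1b had 1.03 (SE 0.33, adjusted p = 0.432 by edgeR), Hspa1a 0.90 (SE 0.42), Hspb1 0.94 (SE 0.46) and Hspa8, a constitutive chaperone, -0.38 (SE 0.39).

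Some glial transcripts were high in both replicate 3 libraries, as most members were. The 8 astrocyte and oligodendrocyte markers, some of which ensheathing glia and supporting cells of the nose also express, summed to 842.8, 660.0 and 2230 CPM in sFlt1 mice and 782.1, 1040 and 3106 CPM in controls, with none at 0. Gfap was at 19.7, 0.9821 and 730.7 CPM in sFlt1 mice and 9.135, 26.4 and 118.6 CPM in controls. Slc1a2, a glutamate transporter of glia, was at 65.1, 121.0 and 376.6 CPM against 197.1, 248.7 and 935.3 CPM. Both replicate 3 libraries held the 2 highest values for 5 of the 8 markers, among them Gfap, Slc1a2 and Aqp4, of which Aqp4 lay between 405.5 and 533.9 CPM in all libraries. For the oligodendrocyte markers Mbp, Mog and Mag, sFlt1 replicate 1 was above sFlt1 replicate 3, as in Mbp with 175.5, 33.7 and 96.1 CPM in sFlt1 mice and 47.0, 40.1 and 257.5 CPM in controls. The 12 mature sensory neuron markers did not follow this pattern, with sums of 4628, 8836 and 2465 CPM in sFlt1 mice and 12740, 13320 and 9843 CPM in controls. Fibroblast markers were lowest in the same libraries, with sums of 8802, 3388 and 804.0 CPM in sFlt1 mice and 5800, 960.2 and 776.8 CPM in controls. The part of glial or other cells in the levels of the members was not tested.

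**Figure D4:**
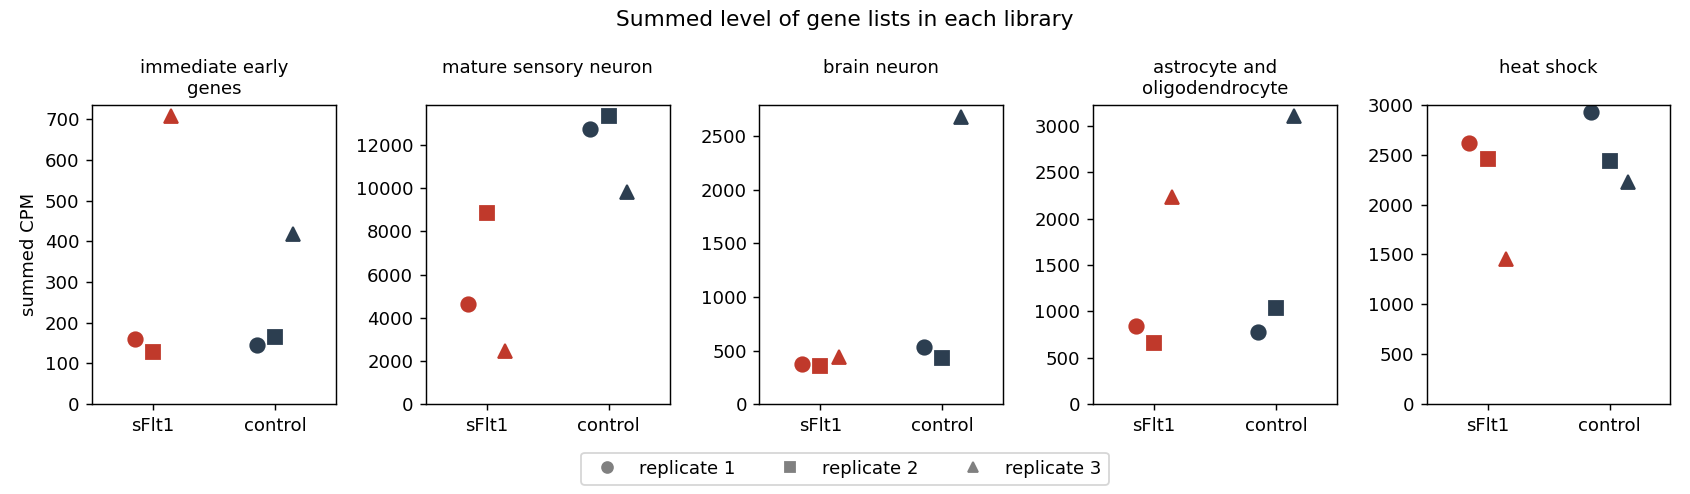
Summed CPM (linear axis from 0) of the immediate early genes and of 4 other gene lists, 1 point per library, sFlt1 mice left and control mice right, with the marker shape giving the replicate number. The immediate early genes sum to 706.5 CPM in sFlt1 replicate 3 and 418.3 CPM in control replicate 3 against 165.1 CPM or less elsewhere, and the astrocyte and oligodendrocyte markers are highest in the same 2 libraries.

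Sums of macrophage and endothelial markers were also highest in both replicate 3 libraries, by less. Gene by gene, these libraries held the 2 highest values for 2 of 8 macrophage and 2 of 7 endothelial markers, against 13.3% of all tested genes. Macrophage markers summed to 105.8, 85.9 and 149.5 CPM in sFlt1 mice and 91.0, 52.8 and 108.6 CPM in controls, and endothelial markers to 42.9, 21.3 and 48.1 against 38.3, 36.2 and 72.4 CPM. In each marker list edgeR passed 0 genes, as it did among all genes tested. DESeq2 passed 4 of 20 brain neuron markers (3 without control replicate 3), where it called 2.53% of genes with a p. It also passed 1 of 7 immature neuron, 1 of 8 cycling and basal cell and 1 of 7 tested neutrophil markers, and 0 in the other marker lists. Median log2 fold changes were -1.14 for mature sensory neurons and -2.78 for brain neurons (-0.76 without control replicate 3). They were -0.72 for astrocytes and oligodendrocytes (0.75 without control replicate 3), 0.62 for fibroblasts, 0.79 for immature neurons and 1.22 for cycling and basal cells. The others were -0.15 for sustentacular cells, 0.40 for macrophages, 1.77 for neutrophils, 0.11 for endothelial cells and 1.66 for skeletal muscle. Without sFlt1 replicate 1 the medians were -0.15 for neutrophils, -2.6 for skeletal muscle, 0.03 for fibroblasts and -0.21 for endothelial cells, and without control replicate 1 it was 1.83 for fibroblasts. Leaving out control replicate 2 gave 0.20 for sustentacular cells, 3.67 for skeletal muscle and 0.18 for macrophages, and the endothelial median was also below 0 without control replicate 2 or sFlt1 replicate 3. Summed skeletal muscle markers were at 117.2 CPM in sFlt1 replicate 1 and 25.1 CPM in control replicate 2, and at 2.996 CPM or less in the other 4 libraries, so muscle transcripts were low in both replicate 3 libraries.

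The genes nearest to Fos across the 6 libraries were sought by the root mean square difference of log2 CPM, each gene centred on its own mean, among 14418 genes. They were Lgi4 (0.32), Apod (0.33), Mmp19 (0.35), Chl1 (0.37) and Greb1 (0.37), and the nearest member was Nr4a1 (0.50). The nearest of so many genes can lie closer than any of the few members through the number searched alone. The distances, also those for Npas4, are therefore descriptions. Apod, an apolipoprotein, was at 244.4, 106.1 and 1687 CPM in sFlt1 mice and 222.0, 269.2 and 603.9 CPM in controls. The genes nearest to Npas4 were Slc30a10 (0.25), Ppm1e (0.30), Ube2ql1 (0.32), Lonrf2 (0.33) and Pcsk1 (0.35), while Arc, the nearest member, was at 1.33. Ppm1e, a phosphatase, was at 11.02, 10.98 and 9.700 CPM in sFlt1 mice and 25.8, 19.9 and 222.9 CPM in controls.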

How the data were processed

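Per the labels' protocols, RNA from dissected nasal conchae was made into sequencing libraries. Per the submitters' processing notes, cutadapt 3.5, TopHat2 2.2.1, HTSeq 2.0.1, DESeq2 1.26.0 and the build GRCm39 were used. Whether reads were counted by strand is not stated. The authors deposited 1 gene table with raw counts per library, and with the log2 fold changes and p-values of their own comparison. Another 48 columns of per-sample values were not used.

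The deposited counts of 55414 entries were read, of which 6250 had no values. Counts were scaled by TMM and filtered by filterByExpr, and 19899 genes were tested with the quasi-likelihood F-test of edgeR 4.0.16 (R 4.3.3) on the group alone, with Benjamini-Hochberg adjustment over all of them. CPM are on TMM-scaled library sizes. Alternatives used DESeq2 1.42.0, limma 3.58.1 voom, other scalings and filters, a replicate block, and left-out mice. The tests were tried on simulated counts first. The labels name each library as a replicate of its group, and nothing else says how the mice were kept or processed together, so p-values measure the spread between these mice. No 2 libraries agreed within sampling noise.

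The members and gene lists were chosen with earlier results of these data known. By the naming rule, the text gives all members, the 3 genes with the smallest edgeR p and the 1 with the highest mean CPM of the induced, upstream, heat shock, brain neuron and glial lists, and the 5 genes nearest to Fos and to Npas4 among genes with a mean of 1 CPM or more, by log2 CPM with a prior count of 2. Other marker lists are given as sums, medians and counts, and the genes the rule picks there are not named, apart from Omp. Csrnp1, Per1, Fosl1, Nr4a3, Dusp1, Zfp36, Srf, Bag3, Hsp90aa1, Gad1, Mbp, Mog and Mag were chosen after their values were seen. Promoters are from RefSeq on GRCm38.p6, matched by symbol, and those of 7 of 10 members were used. The promoter set held no entry for Arc and Ier2, and Egr1 was left out of the promoters shown and counted. The results of some genes that the naming rule picks are not reported here.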

Additional observations from a re-analysis of the deposited data

How the results depend on the processing

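The genes passed numbered 0 by edgeR, 468 by DESeq2 and 540 by DESeq2 with its outlier filter off, and the members passed numbered 0 by edgeR and 1 by DESeq2, filter on or off. Leaving out 1 mouse, edgeR passed 0 to 1 genes. DESeq2 passed 230, 1105 and 730 genes without sFlt1 replicates 1, 2 and 3 and 831, 306 and 172 without control replicates 1, 2 and 3, and 0 to 1 members. The median log2 fold change of the members ran from -1.46 to 1.25 without 1 mouse, and was -1.8 without both libraries with Xist reads, -0.141 by limma voom (3 above 0, 7 below) and -0.0564 with a replicate block (4 above, 6 below). Without both Xist libraries Fos was at -1.74, Fosb -4.43, Egr1 -2.91 and Egr2 -1.93. By limma voom Fos was at -0.00993, Fosb -0.72 and Egr1 -0.123. Without 1 mouse, edgeR gave -1.39 to 1.5 for Fos, -3.89 to 3.18 for Fosb, -2.49 to 2.76 for Egr1, -1.55 to 2.47 for Egr2, -1.05 to 0.85 for Arc and -1.53 to 0.577 for Nr4a1. With the same mouse left out, DESeq2 turned Fos to -1.39 and Egr1 to -2.49 (sFlt1 replicate 3), Fosb to -0.387 (control replicate 1), -0.336 (control replicate 2) and -3.87 (sFlt1 replicate 3), Egr2 to -1.54 (sFlt1 replicate 3), Arc to 0.862 and Nr4a1 to 0.59 (control replicate 3), and Nr4a1 to 0.164 (sFlt1 replicate 1) and 0.377 (sFlt1 replicate 2). Junb, Npas4, Ier2 and Btg2 kept their sign under every alternative run. A replicate block was also fitted, although the labels do not say that the numbers pair the mice. Deviations from the group mean correlated at 0.0256, 0.246 and 0.357 for same-numbered mice 1, 2 and 3. For differently numbered mice the values ran from -0.417 (sFlt1 replicate 2 with control replicate 3) to 0.289 (sFlt1 replicate 2 with control replicate 1). Whether the numbers pair the mice was not tested. With the block 0 genes and 0 members passed, and Fosb was at -0.487 and Egr1 at -0.0432. Apart from what the left-out mice show, the cause of these differences was not tested. Npas4 and Egr2, with as few as 12 and 11 reads in a library, had the lowest counts of the members in a single library.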
